A study of Rattus norvegicus with 4 samples.

Results

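The genes described here encode the proteins of the cytosolic ribosome in rat embryonic stem cells (ESCs) with and without Thop1. They were chosen by symbol alone, as protein-coding genes named Rpl or Rps followed by a digit, or Rplp0 to Rplp2, leaving out the S6 kinases of the Rps6k family. The rule found 98 of the 34773 genes in the table. Of these, 55 name a protein of the large subunit, 37 a protein of the small subunit and 4 a protein of the stalk, and 2 (Rpl7l1 and Rps19bp1) name proteins that are not part of the ribosome. The 98 loci carry 88 different symbols, because 8 symbols stand at more than 1 locus, and 21 loci have no intron in the deposited annotation. The rule did not pick up ribosomal proteins named otherwise, such as Rpsa and Rack1, which are given separately.

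A ribosome joins ribosomal RNA with one copy of most ribosomal proteins, and its subunits are assembled in the nucleolus before they are exported. The mRNAs of these proteins are among the most abundant in dividing cells, and in stem cells their supply is tied to growth. Most of them begin with a C followed by a stretch of pyrimidines, the 5′ terminal oligopyrimidine (TOP) motif, through which mTOR signalling and the binding protein Larp1 control their translation and stability. Ribosomal protein genes have also left many processed copies in mammalian genomes, which resemble the source mRNA and lack introns.

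Poly(A) RNA was sequenced from DA-5-3 GFP cells, labelled WT, and from 3 Thop1-KO GFP subclones (#1, #2 and #3), with 1 library each. DA-5-3 is a rat ESC line that the study calls diploid, while the deposited description speaks of haploid ESCs for the same libraries. Every library carries the Rex1-GFP reporter, which marks naive pluripotency, and the subclones were picked as colonies after Cas9 was used to disrupt Thop1 under puromycin selection. Thop1 encodes thimet oligopeptidase, a peptidase that trims peptides left by the proteasome. The study's culture method is growth on feeder cells with LIF and the inhibitors PD0325901 and CHIR99021, and no age or sex is given for the line.

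The libraries held between 15405499 and 17936544 counts on genes. Thop1 stood at 370 CPM (counts scaled for depth with edgeR's TMM method) in DA-5-3 and at 110, 92.5 and 149 CPM in #1, #2 and #3 (log2 fold change -1.66, standard error 0.29, edgeR adjusted p = 0.0187). Of 11 ESC markers, 9 were in the table, and their summed FPKM (fragments per kilobase of exon, scaled for depth) was 5266 in DA-5-3 and between 3822 and 4771 in the subclones. Most of this sum lay on Pou5f1 (3347 FPKM in DA-5-3 and 3403, 2718 and 3294 in #1, #2 and #3) and Utf1 (1500 against 600, 388 and 592.6). Of the 9 markers, edgeR called 3 higher (Esrrb, Tfcp2l1 and Sall4) and 1 lower (Utf1), beside 8.62% and 5.17% of all genes. Esrrb stood at 12.1 FPKM in DA-5-3 and at 251.8, 217 and 245.5 FPKM in #1, #2 and #3. Of 10 fibroblast markers, 9 were in the table, with summed FPKM of 59.3 in DA-5-3 and 64.9, 147 and 83.8 in #1, #2 and #3. Of these markers, Thy1, Dcn and Lum had 0 counts in every library. Col1a1 had 32.24 FPKM in DA-5-3 and 51.81, 94.15 and 62.51 FPKM in #1, #2 and #3. Col3a1 had 1.32 FPKM against 3.37, 16.6 and 7.55 FPKM, and Postn, with few counts, was also higher in every subclone. For Acta2, Tagln and S100a4, DA-5-3 lay inside the subclones' range. EdgeR called 0 of the 6 fibroblast markers tested. The part of feeder cells in the differences that follow was not tested. Because DA-5-3 has 1 library, the spread comes from the 3 subclones alone, the difference between the genotypes cannot be told apart from any difference of that library, and an exact one-sided permutation test of 1 against 3 could not give a p under 0.25.

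Ribosomal protein mRNAs took a large part of every library. The 98 genes together held 13.36% of all counts in DA-5-3 (95% Wilson interval 13.35 to 13.38, which covers counting error only). They held 10.08%, 9.594% and 9.754% in #1, #2 and #3, a mean of 9.81% ± 0.248 (SD, n = 3), a difference of -3.554 percentage points from DA-5-3, which lay outside their range. In these bulk samples fewer cells of a type and less RNA per cell cannot be told apart. Genes of the large subunit went from 6.84% in DA-5-3 to between 4.929% and 5.07% in the subclones, and those of the small subunit from 5.291% to between 3.859% and 4.119%. The stalk genes held 1.21% in DA-5-3 and between 0.696% and 0.8442% in the subclones. The mitochondrial ribosomal proteins, the family closest in function, held 0.7596% in DA-5-3 and between 0.5494% and 0.6068% in the subclones. A wider set took in loci under other names whose symbol or description names a cytosolic ribosomal protein. It left out 7 members, namely Rpl7l1, Rps19bp1 and the paralogues Rpl3l, Rpl10l, Rpl22l1, Rpl39l and Rps27l. The share of this set was 15.72% in DA-5-3 and between 11.13% and 11.77% in the subclones.

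**Figure D1:**
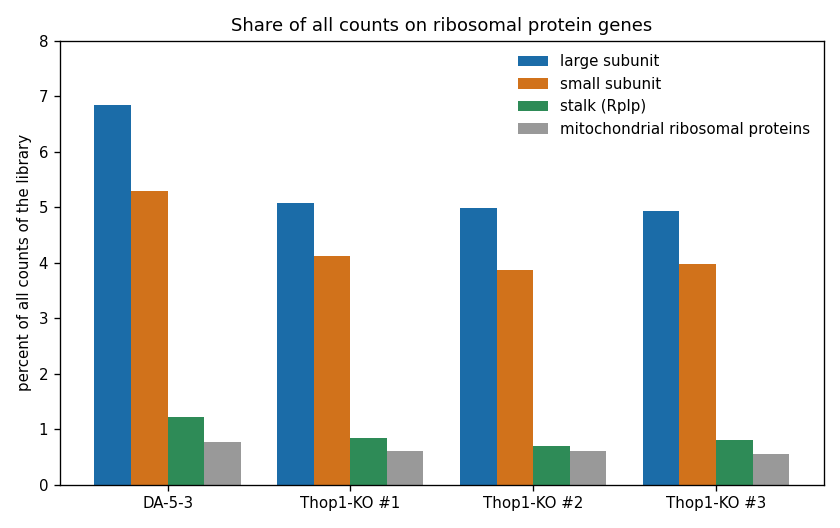
Percent of all counts of each library (vertical axis) on ribosomal protein genes of the large subunit, the small subunit and the stalk and on mitochondrial ribosomal proteins, with 1 library per bar and no error bar. All 4 groups of bars are tallest in DA-5-3, where the large subunit genes stand at 6.84% against 4.929% to 5.07% in the 3 subclones.

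Members differed widely in level. Compared per length, 49 of the 98 had a mean FPKM over 1000, 28 lay between 100 and 1000, and 38 were among the 100 genes of largest summed count. The highest mean FPKM was that of Rps2, a small subunit protein near the mRNA entry channel, with 5684 in DA-5-3 and 7589, 5889 and 7396 in #1, #2 and #3. Rpl36, a large subunit protein, followed with 6365 in DA-5-3 and 6165, 5062 and 5342 FPKM in the subclones. Next came the stalk genes Rplp0 and Rplp1, whose values are given below. At the other end, Rpl3l, the striated muscle form of Rpl3, had 12 counts in DA-5-3 and 1, 2 and 4 in #1, #2 and #3, Rps10l1 had 32 against 2, 5 and 4, and the Rpl21 locus on chromosome 3 had 10 against 18, 10 and 12. Of the 98, 94 passed the filter on low counts. Rpl10a, Rpl23a and Rplp0l1 were listed at 0 counts in every library, which allows up to 0.195 CPM on a locus in DA-5-3, and Rpl30l1 had 1 count in #1. Rpl10a and Rpl23a encode proteins that every cell uses, and loci with other names but described as these proteins did hold counts, as the sums per protein show.

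Of the 94 tested, 28 were lower and 2 higher in Thop1-KO at an adjusted p under 0.05 (29.8% and 2.13%), whereas of all 15028 genes tested 5.17% were lower and 8.62% higher. The median log2 fold change was -0.59 (interquartile range -0.91 to -0.18) over members and 0.06 over all genes. The fold change was negative for 77 of the 94, and the DA-5-3 value lay above all 3 subclones for 71 (75.5%, against 37.6% of all genes) and below all 3 for 14 (38.1% of all genes). The median differences from the 1 DA-5-3 library, which all 3 subclones share as control, were -0.47 in #1, -0.65 in #2 and -0.64 in #3, beside -0.022, -0.025 and 0.011 over all genes. The lower calls ran from -3.32 to -0.69 on the log2 scale, and 53 of the 94 members had an unadjusted p under 0.05, as did 5110 of all 15028 genes.

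How many members were called depended on the libraries and on gene length. Without #3 the fit called 3 members lower (Rpl30, Rpl22l1 and the Rps27a locus on chromosome 5) and 1 higher (Rpl7l1), and the shares of all genes were then 0.625% lower and 2.16% higher. Without #2 it called 45 lower and 6 higher, with 16.4% and 20.6% of all genes. Without #1 it called 29 lower and 1 higher, with 4.66% and 8.22% of all genes. The medians without 1 subclone stayed between -0.66 and -0.53. With a correction of each library for exon length, 14 members were lower and 3 higher, 12 of the 28 lower calls remained, and the median was -0.31 against -0.09 for all genes, of which 6.4% were lower and 7.14% higher. DESeq2, the tool the study names, called 25 lower, all among the 28, and 5 higher, beside 7.29% and 14.2% of all genes. Upper quartile scaling called 40 lower and 1 higher (6.41% and 8.03% of all genes), and scaling by library size only called 27 lower and 4 higher (4.08% and 9.51%). Limma on log2(FPKM + 1) without a filter called 2 lower, Rpl30 and Rps13, and 1 higher, beside 1.74% and 0.627% of all genes.

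**Figure D2:**
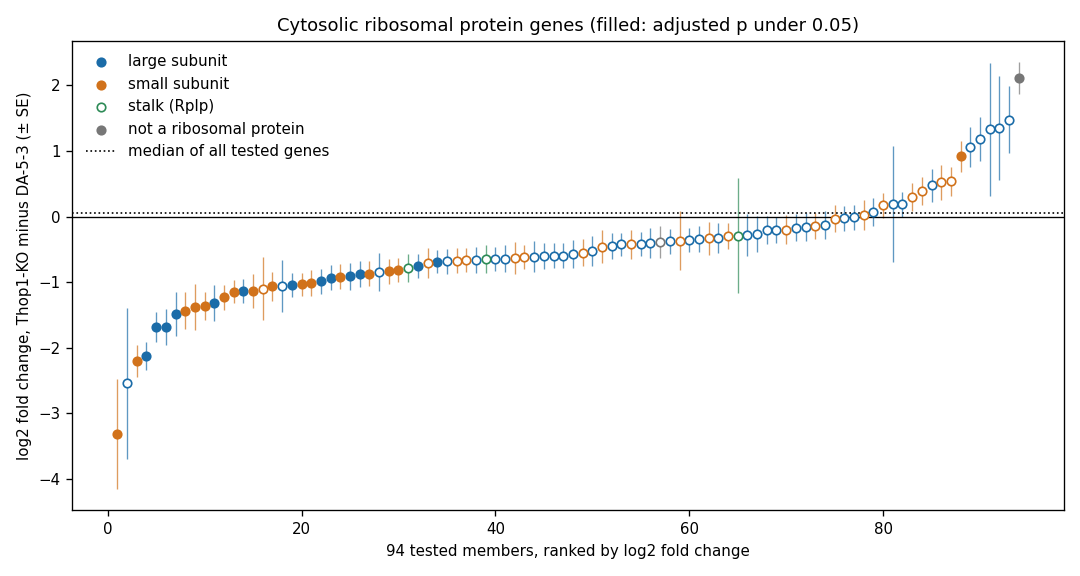
Log2 fold change of the 94 tested members (vertical axis, Thop1-KO minus DA-5-3, bars ± standard error of the edgeR fit) ranked from lowest to highest (horizontal axis), coloured by subunit. Filled points passed an adjusted p of 0.05. Most points lie below 0 and below the dotted median of all tested genes at 0.06, and the highest point is Rpl7l1, which is not a ribosomal protein.

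Both subunits contributed. Of 52 large subunit genes tested, 13 were lower and 0 higher, with a median log2 fold change of -0.49. DESeq2 called 11 of these lower and 3 higher, and 27 of the 52 had an unadjusted p under 0.05 in edgeR, beside 5110 of all 15028 genes. Of 37 small subunit genes, 15 were lower and 1 (Rps9) higher, with a median of -0.66. Over all genes tested, edgeR called 5.17% lower and 8.62% higher, and DESeq2 called 7.29% lower and 14.2% higher. The difference between the subunits was not tested. The 77 members with a mean FPKM of 100 or more had 24 lower calls and a median of -0.60, and the 17 tested members below 100 had 4 lower calls and a median of -0.29.

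The lower calls with the smallest p-values were Rpl30, the Rps27a locus on chromosome 5, Rpl22l1, Rps12, Rps13, Rps3a and Rpl18. Rpl30 (ENSRNOG00000005975, chromosome 7, 73213581 to 73216251 on the minus strand, exons and introns) encodes a large subunit protein at the interface with the small subunit. It stood at 419.8 CPM in DA-5-3 and at 95.22, 103.3 and 89.05 CPM in #1, #2 and #3. The subclones thus lay close to each other and far under DA-5-3, at 22.8% of its level (log2 fold change -2.13, standard error 0.21, edgeR adjusted p = 0.00678). Rpl30 was the only member called lower under all 14 alternatives, with adjusted p-values from 1.38e-09 to 0.0440.

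The Rps27a locus on chromosome 5 (ENSRNOG00000034246, 138628482 to 138629026, minus strand) has no intron and lies within the span of Foxj3, which held at most 753 counts. Rps27a encodes ubiquitin fused to a small subunit protein. The locus had 1035 CPM in DA-5-3 and 211, 275 and 189 CPM in the subclones, which do not overlap with the control (log2 fold change -2.20, standard error 0.25, edgeR adjusted p = 0.00705). Limma on log2(FPKM + 1) without a filter gave it the largest adjusted p of the 14 alternatives, 0.127.

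Rpl22l1 (ENSRNOG00000011817, chromosome 2) encodes a paralogue of the large subunit protein Rpl22. It had 175.9 CPM in DA-5-3 and 55.69, 49.66 and 58.60 CPM in the subclones, a fall to 31.1% (log2 fold change -1.69, standard error 0.23, edgeR adjusted p = 0.00999). Rps13 (ENSRNOG00000028021, chromosome 3, without introns) encodes a small subunit protein and had 293.0 CPM in DA-5-3 against 116, 115.9 and 110 CPM (log2 fold change -1.36, standard error 0.21, edgeR adjusted p = 0.0137). Rps12, another small subunit gene, had 1605 CPM in DA-5-3 and 714, 650 and 682 CPM in the subclones (log2 fold change -1.23, standard error 0.19, edgeR adjusted p = 0.0130). In each of these genes the subclones formed a narrow group below DA-5-3. Without #3, the adjusted p was 0.0462 for Rpl22l1, 0.0790 for Rps13 and 0.0727 for Rps12.

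Rps3a and Rpl18 were also called lower. Rps3a (ENSRNOG00000011893, chromosome 2) encodes a small subunit protein that contacts initiation factors. It had 2369 CPM in DA-5-3 and 1076, 1076 and 1059 CPM in #1, #2 and #3, a coefficient of variation of 0.912% among the subclones (log2 fold change -1.15, standard error 0.18, edgeR adjusted p = 0.0142). Rpl18 (ENSRNOG00000021035, chromosome 1), of the large subunit, had 4611 CPM in DA-5-3 and 2196, 1911 and 2174 CPM in the subclones (log2 fold change -1.14, standard error 0.18, edgeR adjusted p = 0.0149). Their adjusted p-values without #3 were 0.0818 and 0.0730. For both, the subclones held 45.2% and 45.4% of the DA-5-3 level.

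**Figure D3:**
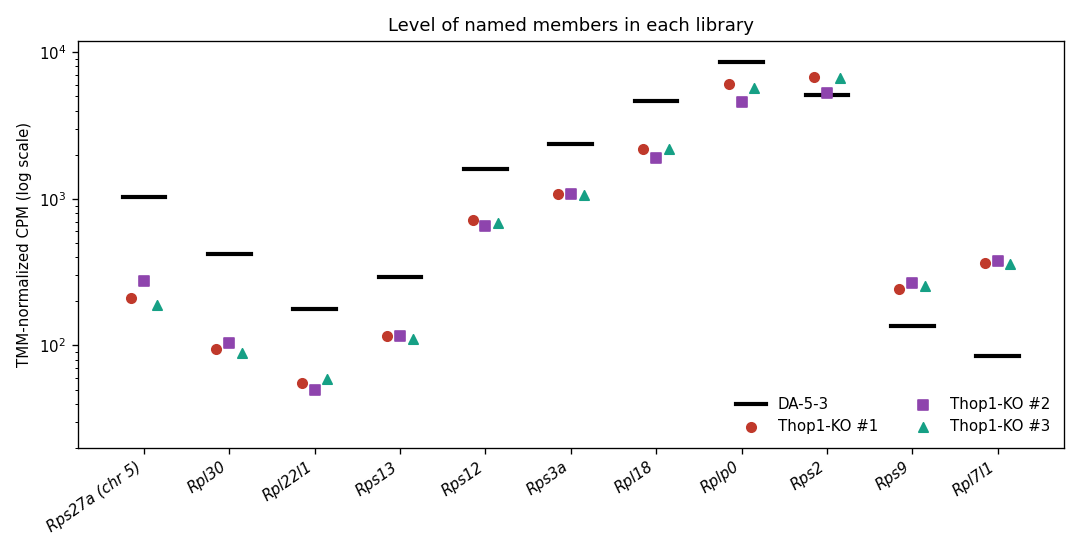
TMM-normalized CPM (vertical axis, log scale) of 11 members in DA-5-3 (black line) and in the 3 subclones (points), 1 library each. The 3 points of Rpl30 lie between 89.05 and 103.3 CPM under a line at 419.8, those of Rps2 lie above its line, and those of Rps9 and Rpl7l1 lie above theirs.

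The remaining lower calls of the small subunit included Rps10l1, Rps4y2, Rps15al4, Rps27l, Rps28, Rps4x on chromosome X, Rps24 and Rps20. Those of the large subunit included Rpl21 on chromosome 12, Rpl9 on chromosome 1, Rpl32 on chromosomes 4 and 6, Rpl29, Rpl41, Rpl35, Rpl28 and Rpl10. The Rpl9 locus has no intron and held 0.649% of the counts described as that protein. With all loci of a protein summed, as described below, L9 was at a log2 fold change of -0.48 and was not called. The sums that take in Rps15al4 (S15A, -0.57) and Rps10l1 (S10, -0.71) were not called either. Rpl10, the large subunit protein whose loading completes a mature subunit, was nearest to the threshold, with 3403 CPM in DA-5-3 and 1996, 2155 and 2190 CPM in the subclones (log2 fold change -0.69, standard error 0.18, edgeR adjusted p = 0.0498). It was called under 4 of 14 alternatives, with an adjusted p of 0.0858 in DESeq2 and, in edgeR, of 0.198 with the length correction, 0.0685 without #1 and 0.213 without #3. Rps4x on chromosome X had 3323 CPM in DA-5-3 and 1691, 1549 and 1621 CPM in the subclones, near 48.8% of the control (log2 fold change -1.04, standard error 0.18, edgeR adjusted p = 0.0179). Rps10l1 carried the largest fold change but rests on few reads, as its counts above show, and 7 of 13 alternatives called it.

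The stalk of the large subunit recruits the translation factors that hydrolyse GTP, and none of its genes passed the threshold. DESeq2 called 0 of the 3 tested, and 2 had an unadjusted p under 0.05 in edgeR, beside 5110 of all 15028 genes. Both of these, Rplp0 and Rplp1, passed the adjusted threshold when #1 was left out (0.0483 and 0.0298) and when #2 was left out (0.0270 and 0.0110). Rplp0, the base of the stalk, had 8509 CPM in DA-5-3 and 6044, 4543 and 5723 CPM in the subclones (log2 fold change -0.65, standard error 0.21, edgeR adjusted p = 0.0827). Rplp1 had 4038 CPM in DA-5-3 and 2699, 1961 and 2372 CPM (log2 fold change -0.78, standard error 0.22, edgeR adjusted p = 0.0598). The DA-5-3 values of both lay above every subclone, and #2 was the lowest subclone for each. The locus named Rplp2 had 20 counts in DA-5-3 and 29, 20 and 8 in the subclones, while the loci described as this protein under other names held nearly all its reads.

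Several members have known roles outside the ribosome. Rpl5 and Rpl11 bind 5S ribosomal RNA and, when free, the p53 ligase Mdm2. Rpl5 had 1830 CPM in DA-5-3 and 1211, 1084 and 1129 CPM in the subclones (log2 fold change -0.68, standard error 0.19, edgeR adjusted p = 0.0576). Rpl11 had 1566 CPM in DA-5-3 and 1011, 1099 and 988 CPM (log2 fold change -0.60, standard error 0.19, edgeR adjusted p = 0.0796). Both lay above all subclones in DA-5-3 without passing the threshold, and with the length correction Rpl11 did pass it (log2 fold change -0.94, edgeR adjusted p = 0.0296). Its annotated exons sum to 3845 bases.

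Rps3, a small subunit protein with a role in DNA repair, did not pass the threshold, with 3542 CPM in DA-5-3 and 3456, 2816 and 3317 CPM in the subclones (log2 fold change -0.15, standard error 0.20, edgeR adjusted p = 0.626). Rps25, which serves initiation at internal ribosome entry sites, had 672 CPM in DA-5-3 and 775, 620 and 651 CPM, so that DA-5-3 lay inside the subclones' range (log2 fold change 0.02, edgeR adjusted p = 0.956). Rps6, the small subunit protein phosphorylated by the S6 kinases, had only 35.2 CPM in DA-5-3 and 52.9, 52.2 and 46.9 CPM at the locus with its symbol (log2 fold change 0.53, standard error 0.27, edgeR adjusted p = 0.212). That locus held 38.5% of the counts described as this protein. Rpl38, known for the translation of Hox mRNAs, had 21 counts in DA-5-3 and 89, 70 and 28 in the subclones at the locus of that symbol on chromosome 8, which has no intron. This locus held 0.813% of the counts described as that protein. Their sum was 6506 in DA-5-3 and 7022, 6372 and 5688 in the subclones (log2 fold change -0.27, standard error 0.24) and was not called.

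The members called higher were Rps9 and Rpl7l1. Rps9 (ENSRNOG00000058909, chromosome 1) encodes a small subunit protein and had 135 CPM in DA-5-3 and 242, 268 and 255 CPM in the subclones (log2 fold change 0.92, standard error 0.23, edgeR adjusted p = 0.0470). The gene spans 64018125 to 64090021 and overlaps Mboat7l1, Tmc4 and Tsen34, whose counts reached 658 at most, and reads of overlapping genes could not be told apart by strand. Its adjusted p was 0.0653 without #1 and 0.203 without #3. Rpl7l1, a nucleolar relative of Rpl7 that acts in ribosome assembly, had 84.9 CPM in DA-5-3 and 366, 378 and 358 CPM in the subclones (log2 fold change 2.11, standard error 0.24, edgeR adjusted p = 0.00724). It was called under all 14 alternatives, whereas Rps9 was called under 9 of 14 and not with upper quartile scaling or the length correction. The other higher calls with the length correction were both Rpl7a loci on chromosome 3 (log2 fold changes 1.33 and 1.45). Neither was called in the main fit (1.06 and 1.18), and with their other loci added L7A was at 0.42 and was not called. Rps19bp1, the other match that is not a ribosomal protein, had 149 CPM in DA-5-3 and 126, 117 and 100 CPM in the subclones (log2 fold change -0.38, standard error 0.24, edgeR adjusted p = 0.305). The median of the other 92 tested members was -0.60, with 28 lower and 1 higher.

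Loci that share a symbol did not always move alike. The Rps27a locus with introns on chromosome 14 had 948 CPM in DA-5-3 and 1114, 1053 and 1031 CPM in the subclones (log2 fold change 0.17, standard error 0.20, edgeR adjusted p = 0.570), whereas the locus on chromosome 5 fell by 2.20 on the log2 scale. For Rps4x the order was the opposite, because the locus with introns on chromosome X fell by 1.04 while the locus without introns on chromosome 4 had 328 CPM in DA-5-3 and 506, 445 and 481 CPM in the subclones (log2 fold change 0.54, standard error 0.22, edgeR adjusted p = 0.138). The Rpl21 locus with introns on chromosome 12 fell from 950 CPM to 246, 380 and 262 CPM (log2 fold change -1.68, standard error 0.28, edgeR adjusted p = 0.0161, and 0.0544 without #3). Its copies without introns on chromosomes X and 13 had log2 fold changes of -0.62 and -0.41 that did not pass the threshold. Both Rpl32 loci were lower, and neither Rps10 locus passed, at -0.71 and -0.63. The sequences of the loci were not compared here. How reads that match several loci were divided depends on the authors' counting, whose treatment of reads with several matches is not given in the sources used here.

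**Figure D4:**
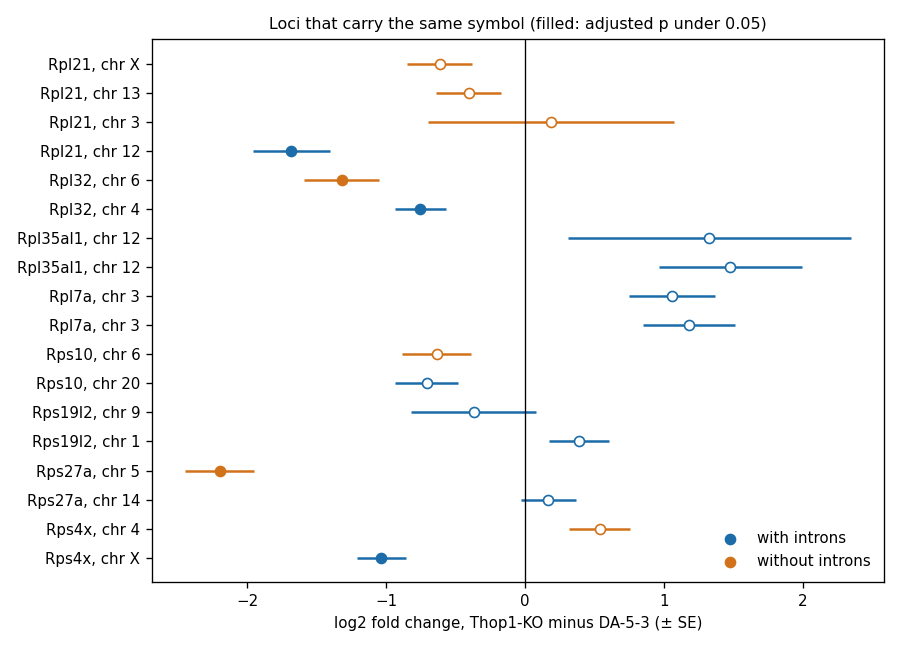
Log2 fold change (horizontal axis, Thop1-KO minus DA-5-3, bars ± standard error) of the 18 loci of the 8 symbols that stand at more than 1 locus, split into loci with and without introns. Filled points passed an adjusted p of 0.05. The 2 Rps27a loci stand at -2.20 and 0.17 and the 2 Rps4x loci at -1.04 and 0.54.

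Members with and without introns had lower medians alike. The 74 tested members with introns had 21 lower and 2 higher calls and a median of -0.53, and the 20 tested members without introns had 7 lower and 0 higher calls and a median of -0.62 (12 of these 20 had an unadjusted p under 0.05, beside 5110 of all 15028 genes, and DESeq2 called 0 higher and 6 lower). For comparison, edgeR called 5.17% of all genes lower and 8.62% higher, and DESeq2 called 7.29% lower and 14.2% higher. Members without introns held 0.3733% of all counts in DA-5-3 and between 0.1973% and 0.2362% in the subclones. Among them, the 3 with most counts were the Rps27a locus on chromosome 5, Rps4y2 and Rps4x on chromosome 4. Rps4y2, a locus named after a Y-linked copy that stands here on chromosome 4 and overlaps Tmtc1, had 931 CPM in DA-5-3 and 271, 442 and 319 CPM in the subclones (log2 fold change -1.44, standard error 0.28, edgeR adjusted p = 0.0262, and 0.0864 without #3).

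Paralogue pairs were compared within each library as log2 ratios of FPKM. The ratio of Rps27l to Rps27 was -2.32 in DA-5-3 and -3.06, -3.09 and -3.37 in #1, #2 and #3. Rps27l, a p53-responsive paralogue of the small subunit gene Rps27, was itself lower (log2 fold change -1.13, standard error 0.26, edgeR adjusted p = 0.0355, and 0.147 without #3), whereas Rps27 was at -0.30 (edgeR adjusted p = 0.333). The ratio of Rpl10l, a testis form, to Rpl10 was -4.11 in DA-5-3 and between -3.81 and -3.71 in the subclones. That of Rpl36al to Rpl36a was -2.61 in DA-5-3 and between -2.21 and -1.79 in the subclones. In these pairs DA-5-3 lay outside the range of the subclones, and none of the ratios was tested. The ratio of Rps4y2 to the Rps4x locus on chromosome X alone was -1.34 in DA-5-3, inside the subclones' range of -2.14 to -1.31. The ratio of Rpl39l to Rpl39 was 4.27 in DA-5-3 and between 4.52 and 5.32 in the subclones, but the locus named Rpl39 on chromosome 14 has no intron and held 1.93% of the counts described as that protein. Rpl22 and Rpl26l1 were not analysed here under those symbols.

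Because reads of many ribosomal proteins fall on loci with other names, the counts of all loci that name the same protein were also summed and fitted, a step chosen after seeing the data. This gave 79 proteins from 240 loci, of which 91 were members, and 18 proteins had under 50% of their counts on members. Of the 79, 22 were lower and 0 higher, 73 had a negative fold change, and the median was -0.61, beside 4.99% lower and 8.4% higher of the 14908 features tested. With a positive fold change, 1 protein had an unadjusted p under 0.05 in edgeR, the one tool run on the sums. Rps9 with its other locus was at an edgeR adjusted p of 0.0505 (log2 fold change 0.90, standard error 0.23), on the other side of the threshold from the locus alone. L23A, of which the member itself was listed at 0, had 341 counts in DA-5-3 and 142, 124 and 113 in the subclones at other loci (log2 fold change -1.67, standard error 0.33, edgeR adjusted p = 0.0264). S26, which has no member locus, was lower (27370 counts in DA-5-3 and 16754, 17120 and 16175 in the subclones, log2 fold change -0.95, standard error 0.19, edgeR adjusted p = 0.0255), and L10A had 1724 counts against 2591, 1673 and 1917 (log2 fold change 0.03).

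The sums also changed how some members read. L30 remained lower with its other loci added, at 13438 counts in DA-5-3 and 6704, 6512 and 6678 in the subclones, but by less (log2 fold change -1.26, standard error 0.19, edgeR adjusted p = 0.0142), and Rpl30 with Rpl30l1 held 33.8% of them. S27A, the sum of both Rps27a loci and 1 other, was at -0.63 (edgeR adjusted p = 0.0683). P2, the stalk protein, had 10386 counts in DA-5-3 and 8333, 7110 and 7920 in the subclones (log2 fold change -0.65, standard error 0.22, edgeR adjusted p = 0.0896). The sum for S6 was lower than in DA-5-3 in all subclones without passing the threshold (log2 fold change -0.77, standard error 0.22, edgeR adjusted p = 0.0617), opposite in sign to the locus named Rps6.

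The coefficient of variation over the 3 subclones had a median of 10.2% over the tested members and of 8.96% over the 77 with a mean FPKM of 100 or more. Subclone #1 was the highest of the 3 for 73 of the 94 members, while #2 was the lowest for 45 and #3 for 40. The largest coefficients belonged to Rpl3l, Rplp2, Rpl35al1 and Rpl38, between 52.6% and 63.0%, all loci with few counts.

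Exon length moved with the fold changes of genes at large, and most members are short. Among genes over 400 and up to 600 bases, the 29 members had a median of -0.67 and the 701 other genes -0.66. Among those over 600 and up to 1000 bases, the 25 members had -0.46 and the 1374 others -0.41, and up to 400 bases the 17 members had -0.30 and the 653 others -0.46. In these 3 groups the members lay near or above other genes of their length. Over 1000 and up to 2000 bases, by contrast, the 17 members had a median of -0.64 and the 4310 others -0.08, and over 2000 bases the 6 members had -0.23 and the 7896 others 0.25. From the shortest to the longest group, lower calls made up 3 of 17, 12 of 29, 9 of 25, 4 of 17 and 0 of 6 members, and 8.73%, 10.3%, 8.88%, 6.08% and 2.99% of the other genes. Across genes, Pearson's r of log exon length with the log2 fold change was 0.027 over the 94 members and 0.119 over all 15028 genes, which are not independent replicates. With the length correction, r was -0.23 over the members and -0.015 over all genes. The correction thus left a length trend among the members that the uncorrected fold changes did not have.

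**Figure D5:**
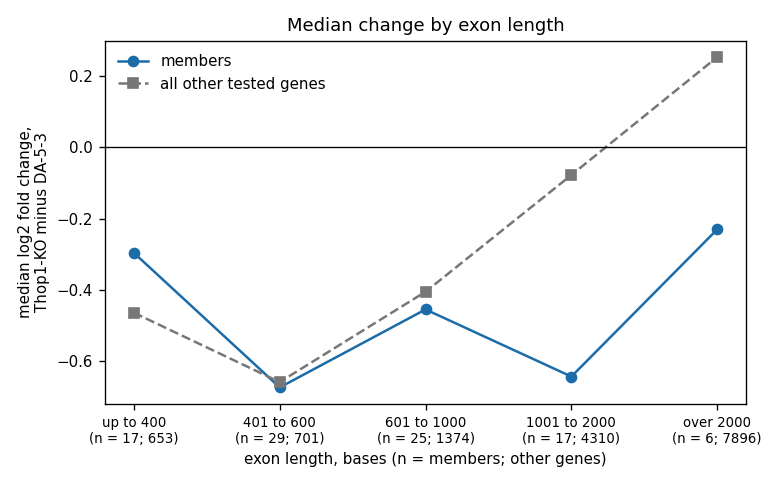
Median log2 fold change (vertical axis, Thop1-KO minus DA-5-3) of members and of all other tested genes in 5 groups of exon length (horizontal axis, with the number of genes under each group). The lines nearly meet over 400 and up to 600 bases, at -0.67 and -0.66, and part over 1000 and up to 2000 bases, at -0.64 and -0.08.

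The transcription starts of members were inspected for the pyrimidine stretch of TOP mRNAs. RefSeq promoters (build GRCr8) were matched by symbol and chromosome for 54 members with introns, of which 51 had the same strand in both annotations. The gene's strand was searched for an unbroken run of at least 6 C or T bases reaching within 5 bases of the annotated start. Such a run was found in 34 of the 54 (63.0%), against 19.7% of all 27457 promoters. Searched on the opposite strand, it was found in 6 of the 54 and in 23.4% of all promoters. The windows below run from 10 bases before to 20 bases from the start, 5′ to 3′ on the gene's strand, with the run in capitals as far as it lies in the window. They show lower, uncalled and higher members side by side, first those called lower, then the stalk genes and the uncalled Rps27a and Rps2, and last those called higher.
Rpl22l1 (chr2:113683186-113683215, plus strand): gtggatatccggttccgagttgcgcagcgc
Rps12 (chr1:23500065-23500094, plus strand): gaagcccagcagagcgcttaaataccgtca
Rps3a (chr2:173827023-173827052, minus strand): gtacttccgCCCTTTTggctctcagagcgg
Rpl18 (chr1:105325260-105325289, plus strand): acctggtctagcaggaggcgccatcatggt
Rplp0 (chr12:46718371-46718400, minus strand): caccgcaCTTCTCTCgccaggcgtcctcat
Rplp1 (chr8:71290853-71290882, minus strand): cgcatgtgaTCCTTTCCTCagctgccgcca
Rps27a (chr14:107488922-107488951, minus strand): agggcggTTCCTTCgacccggagactcggt
Rps2 (chr10:14251838-14251867, plus strand): TCTTTTTCTTCgggaaaacacgtgagtctg
Rps9 (chr1:74430418-74430447, minus strand): cggccacgTTTCTCTTTgtcacgggcctga
Rpl7l1 (chr9:21695708-21695737, plus strand): cagatgcattgtgggaagcctttaactcgt

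The run was found in 7 of 14 members called lower, in 26 of 38 not called and in 1 of 2 called higher. Members with the run had a median log2 fold change of -0.57 and those without it -0.49. Rps3a, Rplp0, Rplp1, Rps27a on chromosome 14, Rps2 and Rps9 carry the run in these windows, and their log2 fold changes range from -1.15 to 0.92. A start annotated a few bases away from the one used in these cells could change whether a run reaches within 5 bases of it. No start was measured here.

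The rest of the translation machinery was read beside the members. Of the ribosomal proteins outside the symbol rule, Rpsa had 7095 CPM in DA-5-3 and 4843, 3542 and 4642 CPM (log2 fold change -0.71, edgeR adjusted p = 0.0758), and Rack1, the kinase scaffold on the small subunit, had 2664 CPM against 2846, 2378 and 2795 CPM (log2 fold change 0.00). Of 74 mitochondrial ribosomal proteins tested, 5 were lower and 3 higher, with a median of -0.52. Their median thus lay near that of the cytosolic members, at a share of lower calls of 6.76% beside 5.17% of all genes. DESeq2 called 11 of the 74 lower and 3 higher, beside 7.29% and 14.2% of all genes. The DA-5-3 value lay above all 3 subclones for 56 of the 74 (75.7%), beside 75.5% of the cytosolic members and 37.6% of all genes. With the length correction the median of the mitochondrial ribosomal proteins was -0.45.

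Of 16 other translation genes with TOP mRNAs, 14 were in the table, and 6 were lower and 0 higher (42.9% lower, beside 5.17% lower and 8.62% higher of all genes), with a median of -0.60. DESeq2 called 1 higher and 6 lower, and 10 of the 14 had an unadjusted p under 0.05 in edgeR, beside 5110 of all 15028 genes. The lower ones were the elongation factor subunits Eef1b2 (-0.89) and Eef1d (-0.91), the chaperones Npm1 (-1.53), Naca (-0.96) and Nap1l1, and Tpt1 (-0.85), all as log2 fold changes. Eef1a1, the factor that brings aminoacyl-tRNA, was at 0.35 (edgeR adjusted p = 0.275) and Eef2, the translocase, at 0.99, and neither passed the threshold in edgeR. Eef2 was the 1 gene of this list that DESeq2 called higher.

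Of 50 genes of ribosome biogenesis and RNA polymerase I, 49 were in the table, and 7 were lower and 1 higher (14.3% and 2.04%, beside 5.17% and 8.62% of all genes), with a median of -0.49. The lower ones were Ncl, Nop58, Dkc1, Rpf1, Rpf2, Imp3 and Gnl3. Rpf2, which helps to place the 5S ribosomal RNA with Rpl5 and Rpl11, had 74.3 CPM in DA-5-3 and 17.1, 19.7 and 18.4 CPM in the subclones (log2 fold change -2.01, standard error 0.25, edgeR adjusted p = 0.00846). The higher one was Rrn3, the initiation factor of RNA polymerase I, with 2.49 CPM in DA-5-3 and 25.3, 23.0 and 28.2 CPM (log2 fold change 3.35, standard error 0.40, edgeR adjusted p = 0.00769). Of 14 regulators of ribosomal protein synthesis, 13 were in the table, and 2 were higher and 0 lower (15.4% higher, beside 8.62% of all genes), with a median of 0.06, beside 0.06 over all genes. DESeq2 called 4 higher and 1 lower, and 7 of the 13 had an unadjusted p under 0.05 in edgeR, beside 5110 of all 15028 genes. Those higher were Larp1, the TOP mRNA binding protein, with 34.9 CPM in DA-5-3 and 121, 126 and 125 CPM (log2 fold change 1.83, standard error 0.26, edgeR adjusted p = 0.0113), and Eif4ebp2, a repressor of cap-dependent initiation, with 35.9 CPM in DA-5-3 and 269, 138 and 187 CPM (log2 fold change 2.46, standard error 0.44, edgeR adjusted p = 0.0202).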

How the data were processed

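Per the labels, total RNA was extracted with Trizol and poly(A) mRNA libraries were made with the NEBNext Ultra kit, which does not mark strand. The authors removed noise and adaptors with the FASTX toolkit. The submitters' processing notes name HISAT2 2.0.5 and featureCounts 1.5.0-p3, and the genome build, strand setting and treatment of reads with several matches are not given in the sources used here. The authors deposited raw counts per gene, and FPKM values that equal those counts divided by exon length and 1 factor per library. Gene coordinates are those of the deposited annotation. Groups follow the labels.

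Counts were fitted with edgeR 4.0.16 in R 4.3.3 (filterByExpr, minimum count 10, TMM, quasi-likelihood test, Benjamini-Hochberg adjustment over all 15028 genes, threshold 0.05), first tested on simulated data. Library totals were 15405499 to 17936544. Every pair of libraries differed beyond sampling noise in a chi-square test of the counts. Alternatives were other scalings, DESeq2 1.42.0, filters, limma 3.58.1 on log2 FPKM with a pseudocount of 1 or 0.1, a loess correction for exon length (span 0.3) and leaving out each subclone. Sums of loci per protein were added after seeing the data. Named members were the 7 with the smallest p in each direction among those called, the 4 with the largest and 3 with the smallest mean FPKM, the 4 with the largest coefficient of variation, paralogue pairs, members with roles outside the ribosome, non-ribosomal matches and the 3 largest without introns. Other called members and loci were named after their values were seen, and some called genes are not reported here. The members and lists were chosen with earlier results of these data known. Each subclone gave 1 library, so p-values measure the spread between these libraries. Figures were drawn with matplotlib 3.10.9 in Python 3.11.15.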

Additional observations from a re-analysis of the deposited data

How the results depend on the processing

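Of 542 comparisons of named members with an alternative, 478 kept direction and side of the threshold, 39 lost the call, 15 gained it and 10 changed sign. The members called higher numbered 1 with upper quartile scaling, 4 with library size only, 5 with DESeq2, 1 with limma without a filter, 0 with loci summed per protein, and 1 to 6 with a subclone left out. Those called lower numbered 2 with limma without a filter, 14 with the length correction, and 3 to 45 with a subclone left out. With the length correction the median log2 fold change was -0.31 over members, -0.20 over the large subunit and -0.41 over the small subunit. The large subunit median was also -0.59 with upper quartile scaling, -0.42 with library size only, -0.43 without a filter, -0.43 with limma without a filter, and -0.54 to -0.47 with a subclone left out. The median of all genes was -0.04 with upper quartile scaling, 0.13 with library size only and 0.06 with TMM. Sign changes, all in members that were not called, came with the length correction in Rplp2 (0.16), Rpl36a (0.22), Rps27 (0.16), Rps3 (0.11), Rpl10l (0.040) and Rpl36 (0.27), and with upper quartile scaling in Rps25 (-0.081). With a subclone left out, Rplp2 ranged from -0.78 to 0.086 (positive without #3), Rps25 from -0.099 to 0.085 (negative without #1) and the Rpl21 locus on chromosome 3 from -0.14 to 0.36 (negative without #1). The cause of these changes was not tested, except that leaving out a subclone uses fewer samples. Low counts limit Rpl3l, Rps10l1, Rplp2 and the Rpl21 locus on chromosome 3. No paired analysis was possible because DA-5-3 has 1 library.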
